A study of Mus musculus with 12 samples.

Results

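This account follows 38 mouse genes that make and use glutathione, thioredoxin and NADPH, handle haem and iron, or remove superoxide and peroxide, in a thymic cell line exposed to a dioxin. The members were taken by gene symbol from the platform annotation, with 1 probe set a gene, the one with the highest mean over the 12 arrays. Of the 38, 33 had a probe set of their own. The probe sets of 2 members, Prdx1 and Ftl1, carry further gene symbols, and 3 members, Prdx5, Prdx6 and G6pdx, were matched to no probe set by symbol; no values are given for these 5. Slc7a11, the cystine importer, had a mean log2 level of 3.77, below the filter value of 3.98, so 32 members were tested among 15844 probe sets of the whole table.

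RNA came from ET cells, described by the labels as a mouse fetal line of cortical thymic epithelium, cultured to near confluence in 24-well plates in DMEM with serum. TCDD at 5 nM, a persistent dioxin and ligand of the aryl hydrocarbon receptor (AhR), was given for 2, 4 or 6 h, and control cells received its solvent 1,4-dioxane at 0.05% by volume for the same times. Each of the 6 groups held 2 Affymetrix arrays, called biological duplicates in the design text with no word on which step was repeated, and p-values therefore cover the spread of these arrays alone, which may be in part technical. No genetic change is named for any group, and all groups are of 1 cell line. The treatment field of the second 4 h TCDD array names the solvent while its title names TCDD, and the descriptions of both 6 h solvent arrays give 4 h; titles set the groups. Of the cortical epithelial markers on the array, 5 of 11 lay above the filter: Ctsl, Ccl25, Krt8, Dll4 and Foxn1. Epcam, Krt18, Prss16, Ly75, Cdh1 and Cd83 lay below it. Also above it were 4 of 8 medullary epithelial markers and 11 of 11 fibroblast and mesenchyme markers. The same held for 3 of 6 thymocyte, 3 of 5 macrophage and dendritic cell and 1 of 4 endothelial markers. A level above the filter therefore names no cell type. The lists differed in level. The median percentile among all probe sets was 98.8 for fibroblast and mesenchyme markers, 29.9 for cortical and 31.1 for medullary epithelial ones. Ctsl had a mean of 11.36, but Ccl25, Krt8, Dll4 and Foxn1 had 5.90, 5.04, 4.63 and 4.36. These levels do not bear out the label of cortical epithelium, and cell identity was not tested. In bulk RNA, fewer cells of a type and less RNA per cell cannot be told apart.

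Glutathione is made from cystine-derived cysteine by glutamate-cysteine ligase and glutathione synthetase, is used by peroxidases and transferases, and is recycled by glutathione reductase. Thioredoxin serves peroxiredoxins in a parallel system, and both systems draw their electrons from NADPH, much of it from the pentose phosphate pathway. Many of these genes are known targets of the transcription factor NRF2, which binds the antioxidant response element, and AhR ligands are known to raise some of the same detoxifying enzymes.

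Clustering of all tested probe sets without the members gave 4 clusters, 1 of 7 arrays from all 6 groups and 3 small ones, each holding arrays of a single time. The 3 small clusters were merged here into a smaller set, against the larger set of 7. The smaller set held 5 arrays. At 2 h and 6 h these were the arrays numbered 2 of solvent and of TCDD, while for 4 h TCDD it was the array numbered 1. Each of the 5 therefore has a duplicate in the larger set that received the same treatment for the same time. The metallothionein Mt1, a metal-binding protein gene, read between 9.6 and 10.8 in log2 on the 5 arrays and between 7.1 and 7.4 on the other 7. Levels throughout are the authors' log2 values, which are equalised between arrays to a median of 5.1. As a check of the labels, Cyp1a1, the AhR's best-known target, read 9.3 to 11.1 on the 6 TCDD arrays and 4.0 to 5.5 on the 6 solvent arrays (average log2 change 5.83 ± 0.26 SE, limma adjusted p = 1.4e-05).

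The antioxidant response element has the core TGACNNNGC, and the AhR binds sites with the core GCGTG. Promoters came from RefSeq (build GRCm38.p6) and ran from 250 bases before to 50 after a gene's start. They were matched for 32 of the 38 members, some with several starts. Gclc, Gsr, Gsta4, Gstt2, Prdx6 and Hmox1 had no matched promoter and were not searched, nor were sites outside the windows. The first core lay, on either strand, in the windows of 10 members and in 23.3% of the 43 member windows, against 12.4% of all 32851 windows. The second lay in 65.1% of member windows and in 32.4% of all; the cores can overlap, as in Sod1. A match is a string of letters and not a measured site. The sequences are those of the 5 tested members whose first core lies, with 25 bases on each side, wholly before the start. Me1, Pgd and Srxn1 hold it across, near or after the start and are not printed. Capitals mark the core, and each is written on the gene's strand.
Gclm, chr3:122245398-122245456, plus strand: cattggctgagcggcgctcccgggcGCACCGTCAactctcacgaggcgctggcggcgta
Txnrd1, chr10:82859089-82859147, plus strand: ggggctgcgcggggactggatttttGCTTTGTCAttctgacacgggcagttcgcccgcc
Gstm5, chr3:107895787-107895845, plus strand: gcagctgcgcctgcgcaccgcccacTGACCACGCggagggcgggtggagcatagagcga
Mgst1, chr6:138140446-138140504, plus strand: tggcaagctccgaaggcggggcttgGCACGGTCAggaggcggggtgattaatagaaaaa
Sod1, chr16:90220681-90220739, plus strand: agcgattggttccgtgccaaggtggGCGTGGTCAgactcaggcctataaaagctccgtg
Gclm and Txnrd1 lay higher on the array of the smaller set in 5 of 5 duplicate pairs, while Mgst1 lay higher in 0 and lower in 4, and Gstm5 and Sod1 went both ways.

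TCDD changed none of the 32 tested members by limma's test across all probe sets. Members past the test numbered 0 for each of 2, 4 and 6 h and 0 for the average of these times, with adjusted p-values of 0.731 or above. Among all tested probe sets 0.0189%, 0.0126%, 0.00631% and 0.0947% passed in these 4 comparisons (0.0884% higher and 0.00631% lower on the average), so a count of 0 among 32 members equals the background to the nearest member. With an unadjusted p under 0.05 there were 0, 1, 1 and 2 members, against 1.49%, 2.17%, 2.15% and 3.36% of all probe sets. The array set as a block left 0 members past the test, where 0.0631%, 0.0442%, 0.0505% and 0.29% of all probe sets passed, and the replicate number as a block also left 0. Outside the members, Nqo1 passed on the average only. It is an NADPH-using quinone reductase that both AhR and NRF2 are known to raise. Its levels were 7.7 and 7.5 in solvent at 2 h, 7.6 and 7.8 at 4 h and 7.9 and 8.0 at 6 h. With TCDD they were 8.3 and 8.5, 8.8 and 9.2, and 9.6 and 9.4. The Nqo1 groups did not overlap at any time, and its average log2 change was 1.22 ± 0.11 SE (limma adjusted p = 0.00227). At single times it did not pass (limma adjusted p = 0.89, 0.173 and 0.0797 at 2, 4 and 6 h). Its average change was larger than that of any tested member, so it does not show that changes of their size would be found.

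The 95% intervals of the average change give a range for the mean effect over the 3 times, without adjustment for the number of members. They do not limit the effect at a single time, where errors were larger. At 4 h, for example, the change was 0.80 ± 0.41 SE for Gclm and 0.90 ± 0.24 SE for Gstm1. Folds on the average ran from 0.891 for Sod1 to 1.40 for Hmox1. The interval lay within 1 log2 unit on either side of 0 for 31 of 32 members, all but Hmox1, and within 0.5 for 18. With the array set as a block these counts were 32 and 26, with Hmox1 at 0.22 ± 0.25 SE (interval -0.34 to 0.79), and with a replicate block at each time they were 31, again all but Hmox1, and 22. The 32 log2 changes had medians of 0.025, 0.20 and 0.05 for 2, 4 and 6 h and of 0.11 for the average, beside medians of 0, 0, -0.05 and 0 over all tested probe sets. The value at 4 h was 0.025 without the first 4 h TCDD array. By subgroup the median on the average was 0.25 for the 4 tested genes of glutathione synthesis and recycling and 0.17 for the 3 of haem and iron. It was 0.092 for the 10 transferases, 0.083 for the 3 glutathione peroxidases, 0.025 for the 4 of NADPH supply, 0.017 for the 5 of the thioredoxin system and -0.017 for the 3 that remove superoxide and peroxide. At 2, 4 and 6 h the median was 0.15, 0.45 and 0.20 for glutathione synthesis and recycling, and 0.05, 0.45 and 0.05 for haem and iron. It was 0, 0.175 and -0.075 for NADPH supply, 0, 0 and 0.15 for the thioredoxin system and -0.075, 0.15 and 0 for the transferases. The glutathione peroxidases had 0.15, -0.05 and 0.05, lowest at 4 h, and the superoxide and peroxide group 0.05, 0.10 and -0.05. Without the first 4 h TCDD array the 4 h median was 0.30 for glutathione synthesis and recycling, 0.05 for haem and iron, -0.125 for NADPH supply, 0.15 for the thioredoxin system and 0 for the transferases, and it was -0.10 for the peroxidases and -0.05 for the superoxide group. No test was made between subgroups.

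The mean level of a subgroup was also taken on each array. For haem and iron it was 9.73 and 10.63, 9.53 and 9.50, and 9.53 and 9.97 in solvent at 2, 4 and 6 h, and 9.63 and 10.73, 10.83 and 9.63, and 9.67 and 9.97 with TCDD. For glutathione synthesis and recycling it was 7.75 and 7.92, 7.70 and 7.70, and 7.62 and 7.92 in solvent, and 7.60 and 8.28, 8.38 and 7.97, and 7.80 and 8.20 with TCDD. In both the array of the smaller set had the higher mean in every pair. The mean of the 5 tested thioredoxin genes stayed between 9.74 and 9.98 on all 12 arrays, though single genes moved in opposite directions. On the first 4 h TCDD array Srxn1 and Txnrd1 stood at 1.05 and 0.85 from the solvent mean. Prdx3 and Txn1 stood at -0.90 and -0.70 on that array, and Prdx2 at 0.

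**Figure D1:**
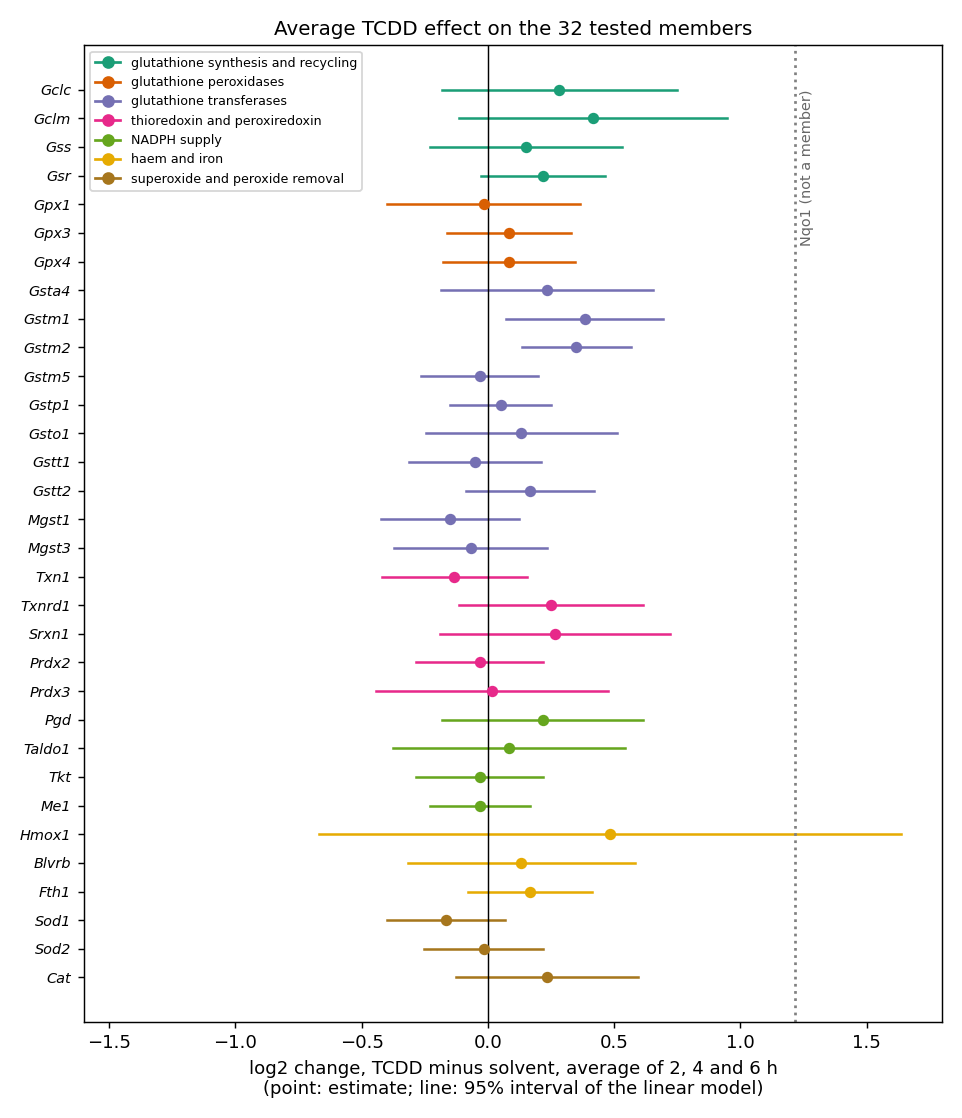
The plot gives the average log2 change with TCDD (horizontal axis, log2) for each of the 32 tested members, coloured by subgroup, with its 95% interval from the fit without a block as a line; the dotted line marks Nqo1 at 1.22. All points lie between -0.17 for Sod1 and 0.48 for Hmox1, and only the Hmox1 interval reaches beyond 1.

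The largest differences were between arrays of the same group, and Hmox1 led them. Hmox1 encodes haem oxygenase 1, which breaks haem down to biliverdin, iron and carbon monoxide, and is among the most inducible genes of oxidative and metal stress. Its probe set 1448239_at read 8.1 and 10.2 in the first and second solvent array at 2 h, 7.5 and 7.4 at 4 h and 7.6 and 8.3 at 6 h. With TCDD it read 8.1 and 10.3 at 2 h, 10.1 and 7.8 at 4 h and 7.6 and 8.1 at 6 h. Arrays of the smaller set at 2 and 4 h were at 10.1 or above, those of the smaller set at 6 h were at 8.1 and 8.3, and the 7 of the larger set lay between 7.4 and 8.1. The array of the smaller set stood above its duplicate by 2.1 and 2.2 in solvent and TCDD at 2 h, by 2.3 in TCDD at 4 h, and by 0.7 and 0.5 in solvent and TCDD at 6 h. The 2 solvent arrays at 4 h, both of the larger set, differed by 0.1. Its pooled SD between arrays of a group was 1.13, against 0.50 for Gclm, the next member.

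Between treatments Hmox1 differed little where each group held 1 array of each set, and most at 4 h, where only TCDD did. At 2 h the log2 change was 0.05 ± 0.89 SE, at 6 h -0.10 ± 0.89 and at 4 h 1.5 ± 0.89 (limma adjusted p = 0.973 at 4 h). Within the sets it was 0 and 0.10 at 2 h, 0 and -0.20 at 6 h, and 0.35 at 4 h in the larger set, the only one with solvent arrays at that time. Without the first 4 h TCDD array the 4 h change was 0.35, and without the second it was 2.65 (adjusted p = 0.164). Mt1 was high on the same 5 arrays; the part of whatever sets those arrays apart was not tested. At 4 h the groups did not overlap for Hmox1, so the difference is positive with either TCDD array, at very unequal size.

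**Figure D2:**
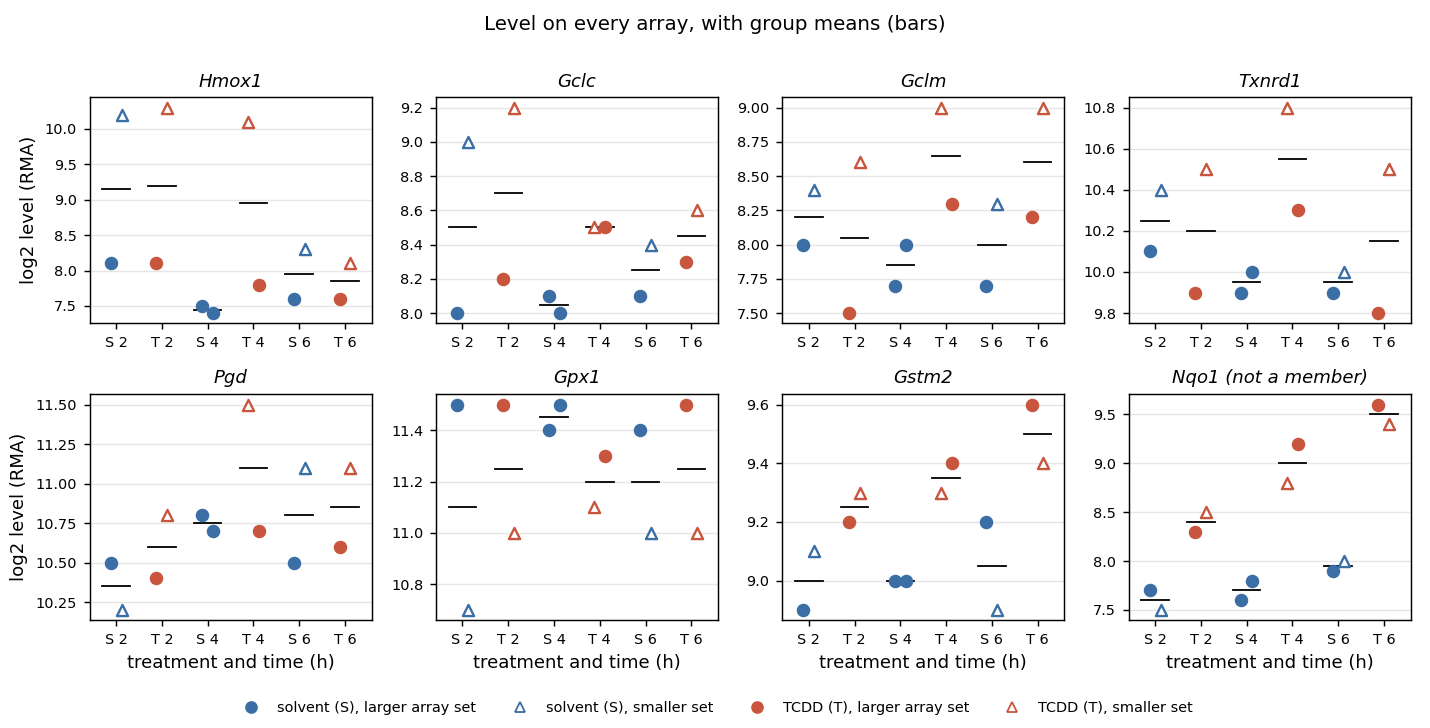
Each panel gives the log2 level of 1 gene (vertical axis, its own range) on every array by treatment and time (S solvent, T TCDD, hours); open triangles are the 5 arrays of the smaller set, filled circles the other 7, and bars the group means. For Hmox1, Gclm and Txnrd1 each triangle lies above its duplicate and for Gpx1 below it, while Nqo1 and Gstm2 part by treatment at every time.

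Over all members the smaller set stood above its duplicate in 5 of 5 pairs for 9 members, or 28.1% of the 32, and below it in 5 of 5 for 1, Gpx1; among all tested probe sets the shares were 7.56% and 8.89%. The sets were drawn from these same arrays, so the counts are a description with no test. The 9 were Hmox1, Blvrb and Fth1 of haem and iron (all 3 tested members), Gclm, Txnrd1, and the transferases Gsta4, Gstm1, Gsto1 and Mgst3. In 3 more, Gclc, Gpx4 and Srxn1, the array of the smaller set was above or equal in every pair. Mgst1, Txn1 and Prdx2 were below or equal in every pair. The other 16 went both ways. The 4 h solvent arrays, duplicates within the larger set, differed by 0.10 in the median over members and by 0.30 at most.

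**Figure D3:**
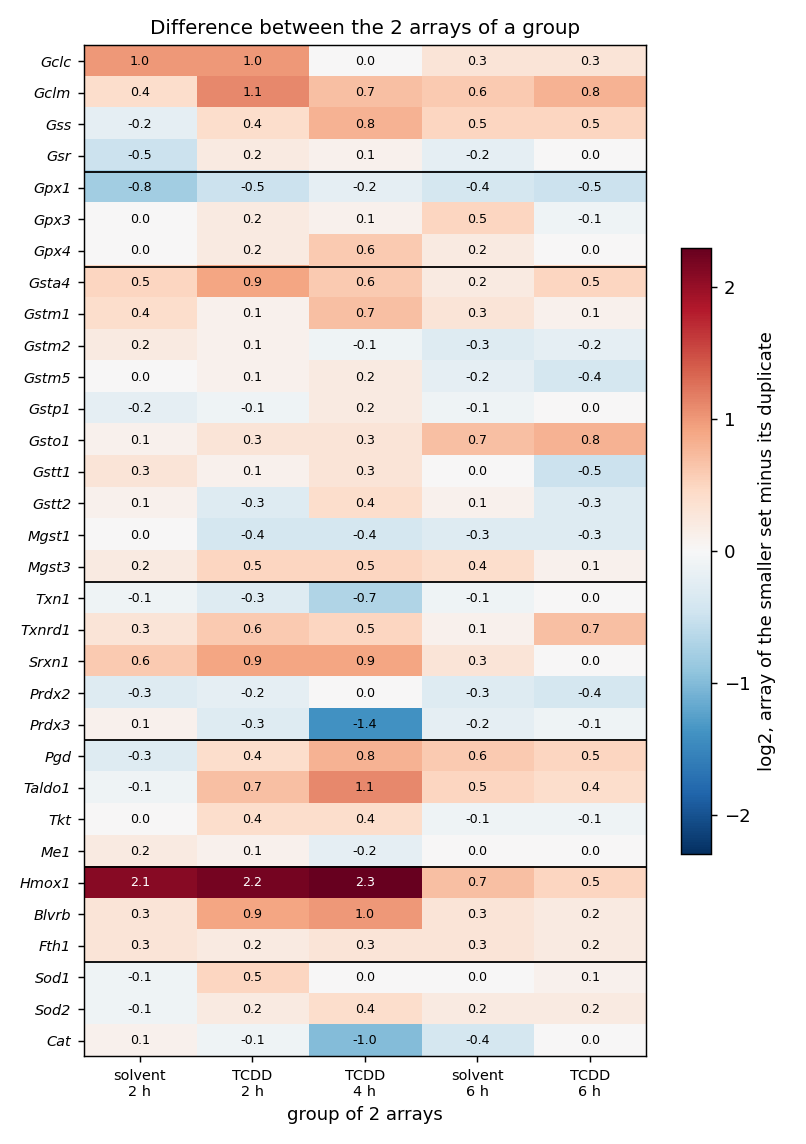
Rows are the 32 tested members in their subgroups (black lines), columns the 5 groups with 1 array in each set, and each cell gives the log2 level on the array of the smaller set minus that of its duplicate (red higher, blue lower). Hmox1 reaches 2.3 in TCDD at 4 h, Gpx1 is below 0 in all 5 columns, and Prdx3 and Cat are lowest, at -1.4 and -1.0, in TCDD at 4 h.

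Among the enzymes that make glutathione, Gclc and Gclm differed between duplicates, and neither passed the test between treatments. Gclc, the catalytic subunit of glutamate-cysteine ligase, read 8.0 and 9.0 in solvent at 2 h, 8.1 and 8.0 at 4 h and 8.1 and 8.4 at 6 h, and 8.2 and 9.2, 8.5 and 8.5, and 8.3 and 8.6 with TCDD at the same times. At 2 h its duplicates differed by 1.0 in both treatments, while the TCDD difference within each set was 0.20. At 4 h both TCDD arrays were equal on the chosen probe set and lay 0.45 above the solvent mean. A second Gclc probe set of similar level (mean 8.24) read 8.8 and 8.3 on these arrays, a change of 0.75. The average change of Gclc was 0.28 ± 0.21 SE (limma, unadjusted p = 0.204). Gclm, the modifier subunit, read 8.0 and 8.4, 7.7 and 8.0, and 7.7 and 8.3 in solvent, and 7.5 and 8.6, 9.0 and 8.3, and 8.2 and 9.0 with TCDD. Its TCDD groups lay above solvent at 4 h only, and within the larger set its change was -0.50 at 2 h, 0.45 at 4 h and 0.50 at 6 h, and within the smaller set 0.20 at 2 h and 0.70 at 6 h. The average was 0.42 ± 0.24 (limma adjusted p = 1), or 0.30 ± 0.11 with the array set as a block (adjusted p = 0.756).

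Gss, which completes glutathione, ran from 6.2 to 7.3 and was highest on the first 4 h TCDD array. Gsr, which returns oxidised glutathione to its reduced form with NADPH, read 8.4 and 7.9, 8.5 and 8.4, and 8.4 and 8.2 in solvent, and 8.3 and 8.5, 8.7 and 8.6, and 8.5 and 8.5 with TCDD. Each of the 6 Gsr readings with TCDD exceeded the mean of solvent at the same time, by a small amount: the average change was 0.22 ± 0.11 SE (limma adjusted p = 1). Slc7a11 read 3.6 and 3.9, 3.8 and 3.6, and 3.6 and 4.0 in solvent, and 4.0 and 3.9, 4.2 and 3.4, and 3.4 and 3.8 with TCDD, all low on this scale.

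Gpx1, the cytosolic glutathione peroxidase, was the only member lower on the smaller set in all 5 pairs. It read 11.5 and 10.7, 11.4 and 11.5, and 11.4 and 11 in solvent, and 11.5 and 11, 11.1 and 11.3, and 11.5 and 11 with TCDD. Every array of the smaller set was at or below 11.1 and every array of the larger set at or above 11.3, and the average TCDD change was -0.02 ± 0.17 SE. Gpx4, which reduces lipid peroxides, stayed between 11 and 11.3 except on the first 4 h TCDD array, at 11.7. Gpx3, the secreted form, was low, at 4.2 to 4.8.

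Among the glutathione transferases, which attach glutathione to reactive compounds, Gstm2 came nearest to a TCDD effect. Gstm2 (1416411_at) read 8.9 and 9.1 in solvent at 2 h, 9.0 and 9.0 at 4 h and 9.2 and 8.9 at 6 h, and 9.2 and 9.3, 9.3 and 9.4, and 9.6 and 9.4 with TCDD. It was the only member whose groups did not overlap at any of the 3 times, as held for 0.467% of all tested probe sets in this direction. The average change was 0.35 ± 0.10 SE, a fold of 1.27 (95% interval 0.13 to 0.57 in log2; unadjusted p = 0.00487, limma adjusted p = 0.731). With the array set as a block it was 0.36 ± 0.09 (adjusted p = 0.348), and within the sets the change lay between 0.20 and 0.50, and the pooled SD between duplicates was 0.126. It failed the test over all genes and is not called changed.

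Gstm1 read 9.2 and 9.6, 8.8 and 8.9, and 9.1 and 9.4 in solvent, and 9.2 and 9.3, 10.1 and 9.4, and 9.6 and 9.7 with TCDD. The groups were apart at 4 and 6 h but not at 2 h, with a 4 h change of 0.90 ± 0.24 SE (unadjusted p = 0.00393, limma adjusted p = 0.973), or 0.55 within the larger set. Both are mu-class genes of a family with close relatives. The chosen Gstm1 probe set (1416416_x_at) is of a kind whose probes can also match related transcripts, so its readings may include signal from relatives. Its other probe sets gave 0.60 to 0.90 at 4 h and 0.22 to 0.40 on the average. Gstm5, the third mu-class member, was flat at 9.2 to 9.6 (average change -0.03 ± 0.10).

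Gsta4, which clears lipid aldehydes, read 9.1 and 9.6, 9.2 and 9.3, and 9.2 and 9.4 in solvent, and 8.9 and 9.8, 9.9 and 9.3, and 9.4 and 9.9 with TCDD. It was higher on the smaller set in every pair, and at 6 h it was also higher with TCDD in both sets, by 0.20 and 0.50. Gsto1, the omega-class enzyme, differed most between duplicates at 6 h, with 9.1 and 9.8 in solvent and 9.0 and 9.8 with TCDD; at 2 h it read 9.1 and 9.2, and 9.2 and 9.5, and at 4 h 9.1 and 9.1, and 9.5 and 9.2. Mgst1, a membrane-bound transferase, went the opposite way, with 10.8 and 10.8, 10.9 and 10.8, and 10.9 and 10.6 in solvent, and 10.8 and 10.4, 10.4 and 10.8, and 10.9 and 10.6 with TCDD. Gstp1, at 11.9 to 12.3, was the highest of the family on this scale, though probe sets differ in how strongly they report a transcript. Mgst3 (7.2 to 7.8), Gstt1 (7.8 to 8.6) and Gstt2 (3.9 to 4.7, near the filter) had average changes between -0.07 and 0.17.

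In the thioredoxin system the reductase and sulfiredoxin were higher or equal on the smaller set in every pair, and thioredoxin itself was lower or equal. Txnrd1, the cytosolic thioredoxin reductase, read 10.1 and 10.4, 9.9 and 10.0, and 9.9 and 10.0 in solvent, and 9.9 and 10.5, 10.8 and 10.3, and 9.8 and 10.5 with TCDD. Srxn1, which repairs overoxidised peroxiredoxins, read 6.8 and 7.4, 6.8 and 6.9, and 6.7 and 7.0 in solvent, and 6.7 and 7.6, 7.9 and 7.0, and 7.0 and 7.0 with TCDD. For both the highest reading was on the first 4 h TCDD array, and the 4 h change of 0.60 in each (± 0.28 and 0.35 SE) became 0.35 and 0.15 within the larger set. Txn1 read 12 and 11.9, 12 and 12, and 12 and 11.9 in solvent, and 11.9 and 11.6, 11.3 and 12, and 12.1 and 12.1 with TCDD, with its lowest values, 11.3 and 11.6, on TCDD arrays of the smaller set at 4 h and 2 h.

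Of the peroxiredoxins, which remove peroxide with thioredoxin's electrons, Prdx2 and Prdx3 were tested, and each was lower on the smaller set in 4 of 5 pairs. Prdx3, the mitochondrial form, read 8.5 and 8.6, 8.6 and 8.6, and 8.8 and 8.6 in solvent, and 8.7 and 8.4, 7.7 and 9.1, and 9.0 and 8.9 with TCDD. Its 4 h duplicates differed by 1.4 in the direction opposite to Hmox1, and the 4 h change, -0.20 with both arrays, was 0.50 within the larger set. Prdx2, a cytosolic form, ran from 11 to 11.5, with equal readings in the remaining pair, TCDD at 4 h.

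In the NADPH group, Pgd and Taldo1 of the pentose phosphate pathway differed between duplicates. Pgd, the second NADPH-forming step, read 10.5 and 10.2, 10.8 and 10.7, and 10.5 and 11.1 in solvent, and 10.4 and 10.8, 11.5 and 10.7, and 10.6 and 11.1 with TCDD. Taldo1, transaldolase of the sugar-shuffling branch, read 9.0 and 8.9, 9.0 and 8.9, and 8.8 and 9.3 in solvent, and 8.6 and 9.3, 9.8 and 8.7, and 8.8 and 9.2 with TCDD. In both the array of the smaller set was above its duplicate in 4 of 5 pairs, and below it in solvent at 2 h, the pair in which Hmox1 and Gclc differed by 2.1 and 1.0. Tkt, transketolase of the same branch, ran from 11 to 11.5. The chosen probe sets of Pgd (1436771_x_at) and Tkt (1439443_x_at) are, like that of Gstm1, of a kind that can also match related transcripts. Me1, the malic enzyme that also yields NADPH, was the steadiest member, at 8.2 and 8.4, 8.2 and 8.1, and 8.3 and 8.3 in solvent, and 8.2 and 8.3, 8.1 and 8.3, and 8.2 and 8.2 with TCDD (pooled SD 0.091).

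Of the other haem and iron genes, Fth1, the ferritin heavy chain that stores iron, read 12.5 and 12.8, 12.6 and 12.5, and 12.5 and 12.8 in solvent, and 12.6 and 12.8, 12.9 and 12.6, and 12.8 and 13.0 with TCDD. Its pair differences, 0.20 to 0.30, were small and all of 1 sign, while a second Fth1 probe set at 12.5 to 12.7 was higher on the smaller set in 2 pairs and lower in 1. Blvrb, a biliverdin reductase, ran from 8.2 to 9.5 and differed most between duplicates with TCDD at 4 h, by 1.0. Hmox1 was the only tested member with a pair difference above 2 log2 units, and Blvrb and Fth1 took the same sign at smaller size.

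Sod1, the cytosolic superoxide dismutase, read 9.9 and 9.8 in solvent at 2 h against 9.2 and 9.7 with TCDD, the largest 2 h change of any member (-0.40 ± 0.18 SE, limma adjusted p = 1). At 4 h it read 9.7 and 9.6 against 9.6 and 9.6, and at 6 h 9.8 and 9.8 against 9.7 and 9.8. The 2 h difference rested on 1 array, since it was -0.70 within the larger set and -0.10 within the smaller. A second Sod1 probe set (1435304_at), at 3.6 to 4.7 near the filter, gave 0.65 at 6 h and differed there by 0.70 from the chosen one. Sod2, the mitochondrial enzyme, ran from 9.1 to 9.6. Cat, catalase, read 7.0 and 7.1, 7.0 and 7.0, and 7.6 and 7.2 in solvent, and 7.3 and 7.2, 6.7 and 7.7, and 7.7 and 7.7 with TCDD. Its groups were apart at 2 and 6 h, and at 4 h its TCDD arrays lay on opposite sides of solvent. A second Cat probe set of similar level (mean 7.25) overlapped at 2 h, with 7.2 and 6.9 in solvent and 7.4 and 7.1 with TCDD. It also overlapped at 6 h, with 7.7 and 6.8 in solvent and 7.9 and 7.5 with TCDD.

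At 4 h 10 members, or 31.2%, had both TCDD arrays above both solvent arrays, where 7.95% of all probe sets did, and 1 member, Gpx1, had them below, where 11.1% did. At 2 h 3 members were above and 1 below, where 7.16% and 6.68% of all probe sets were, and at 6 h 6 were above and 1 below, where 9.69% and 9.66% of all were. The 4 h count held Gclc, Gclm, Gsr, Gstm1, Gstm2, Gsto1, Gstt2, Txnrd1, Srxn1 and Hmox1. It rests on the chosen probe sets. A second Txnrd1 probe set was not apart at 4 h (solvent 5.5 and 5.4, TCDD 6.7 and 5.5). Nor were 1419942_at and 1425351_at of Srxn1, while its 1451680_at was. The other tested probe sets of Gclc, Gsr, Gstm1 and Gsto1 were apart there too. The 2 TCDD arrays did not contribute alike. The first, the only array of the smaller set at 4 h, was above the solvent mean by over 0.50 for 12 members and below it by as much for 2 (median 0.30, 23 above and 7 below). The second was above by that much for 2 and below for 0 (median 0.025, 16 above and 14 below). No solvent array of the smaller set exists at 4 h, so for the first array TCDD and the array set cannot be told apart.

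**Figure D4:**
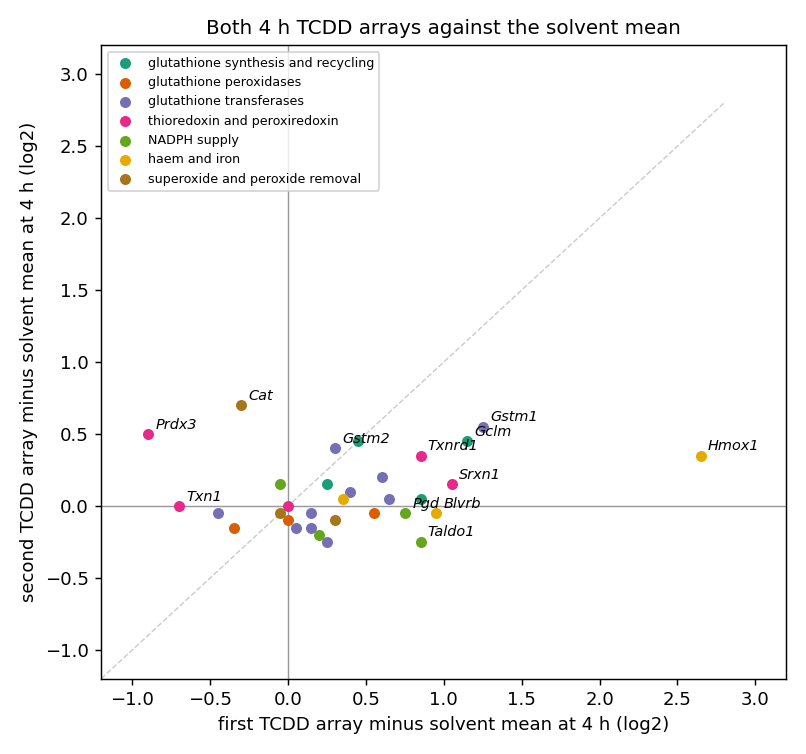
Each point is a tested member; the horizontal axis is the first and the vertical axis the second 4 h TCDD array, each minus the mean of both solvent arrays (log2), with colours for subgroups and a dashed line of equal values. Points spread from -0.90 (Prdx3) to 2.65 (Hmox1) along the horizontal axis and stay between -0.25 and 0.70 along the vertical one.

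Time alone moved no member past the test either. Comparing 4 h and 6 h with 2 h in solvent and in TCDD gave 0 members in each of the 4 limma comparisons, as it gave 0% of all tested probe sets. Members with an unadjusted p under 0.05 numbered 1, 0, 0 and 0 (Gstm1 in solvent at 4 h, -0.55 ± 0.24), against 1.81%, 2.82%, 1.38% and 8.1% of all. Hmox1 had the largest change of any tested member in 3 of the 4 comparisons, -1.7 and -1.2 in solvent at 4 and 6 h and -1.35 with TCDD at 6 h (each ± 0.89 SE), while with TCDD at 4 h its change was -0.25 and the largest was 0.60 for Gclm; the 2 h value they share rests on 1 array at 10.2 or 10.3. The limma F-test for a TCDD effect that differs between times passed for 0 members (adjusted p = 1 for every one) and for 0% of all probe sets; 1 member and 0.663% had an unadjusted p under 0.05.

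Of 69 further genes of the same pathways and of the NRF2 system, 61 were on the array and 58 were tested. One, Nqo1, passed on the average, higher with TCDD, and 0 passed at 2, 4 or 6 h; the array set block added Maff on the average (adjusted p = 0.0262) and gave Nqo1 at 6 h (adjusted p = 0.023). Nfe2l2, the gene of NRF2 itself, read 6.5 and 7.8, 6.2 and 6.1, and 7.0 and 7.3 in solvent, and 8.6 and 8.7, 7.0 and 7.7, and 8.1 and 8.1 with TCDD. Its groups were apart at every time, yet the average change of 1.22 ± 0.21 SE did not pass (limma adjusted p = 0.124). Maff, a small Maf partner of NRF2, stood at 1.10 ± 0.25 on the average in the fit without a block (limma adjusted p = 0.347). The change of Maff was 1.65 at 2 h, 1.5 at 4 h and 0.15 at 6 h. Keap1, which holds NRF2 back, stood at -0.20 ± 0.11 on the average. The 16 other glutathione genes had a median average change of -0.025, the 10 of the thioredoxin system 0.016, the 9 of NADPH supply -0.017 and the 9 of haem and iron 0, none past the test.

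The members' other probe sets numbered 26, on 18 members, of which 23 were tested and 0 passed with TCDD, and apart from Sod1 at 6 h none of the tested ones differed by over 0.50 from the chosen probe set. The second probe set of Gclc was higher on the smaller set in 5 of 5 pairs, as were 1 of Txnrd1 and 2 of Srxn1, and that of Cat was lower in 5 of 5. Others did not keep the pattern of the chosen probe set: those of Gstm1 were higher in 2, 3 and 4 pairs and lower in 3, 1 and 0, that of Gsto1 was higher in 4 and lower in 1, and that of Mgst3, below the filter, was higher in 3 and lower in 1.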

How the data were processed

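The authors deposited log2 values per probe set for 12 arrays, and the submitters' processing notes name RMA; its version, software and the build are not given in the sources used here. Because RMA removes background and equalises arrays, a shift of all genes would not show. Values have 1 decimal. All 12 columns were used and 0 left out. The 64 controls among 22690 probe sets were dropped, and of the rest 20380 carried 1 gene symbol, 691 several and 1555 none. Testing was limited to the 15844 probe sets whose mean reached the 30th percentile (log2 3.98). Linear models with 6 group means were fitted in limma 3.58.1 (R 4.3.3; 6 residual and 3.81 prior degrees of freedom), with two-sided p-values adjusted by Benjamini-Hochberg over all tested probe sets and a threshold of 0.05. Errors are standard errors of this fit. In simulated data, 200 of 15844 probe sets were changed by 1 or 2 in log2, alike at all times. Of the changes of 1, 81% were recovered on the average, and 45%, 38% and 37% at 2, 4 and 6 h. The simulated noise was independent between arrays and probe sets and held no array sets. The shares may therefore be too high for the measured data. Replicate numbers of the titles were checked for pairing. First arrays of both treatments deviated from their group means with correlations of 0.365, 0.159 and 0.705 at 2, 4 and 6 h. A pairing by number was taken from the data and not the labels, and enters only the fits with a replicate block. The main fit, its errors and its intervals have no pairing. At 4 h the correlation was lowest, and only the first TCDD array was of the smaller set. Array sets came from complete-linkage clustering into 4 clusters, the largest against the rest. Values in every array are given for members with the largest changes or spread and for textbook NRF2 targets. Members, lists and the array sets were chosen with earlier results of these data known. The number of arrays limits the precision.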

Additional observations from a re-analysis of the deposited data

How the results depend on the processing

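In the 9 comparisons, as far as each was run, the count of members past the test was 0 without the filter, with the filter at the 50th percentile, with the replicate block within each time or over all times (0), with the array set block, with solvent arrays pooled over times, on the 4 arrays of a time, on the average without 4 h, after another quantile normalization, with trended or unmoderated variances and without any single array (0 to 0). With only the larger set, a choice made after seeing the data, 3 members passed for each of 2 h, 4 h and 6 h (3, 3 and 3) and 4 for the average, 3 in solvent from 2 to 6 h, and 3 and 5 with TCDD from 2 to 4 h and to 6 h; Prdx3 at 4 h turned to 0.50. That fit has 1 residual degree of freedom, the 4 h solvent pair. Nearly all of its calls on the average, those of members included, were probe sets with equal rounded values in that pair. The median change at 4 h was 0.025 with only the larger set and with the set block less the first 4 h TCDD array; leaving out single arrays gave 0.025 to 0.30 at 4 h. Of 3064 values of single members under alternatives, 2917 moved by less than a standard error without a change of call, and the 12 that came to pass and the 1 that reversed were all in that fit. Pooling the 4 h and 6 h solvent arrays, whose labels conflict, also gave 0 at 6 h.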
